A study of Mus musculus with 9 samples.

Results

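The Notch genes described here were 4 receptors (Notch1, Notch2, Notch3 and Notch4), 4 ligands (Jag1, Jag2, Dll1 and Dll4) and 2 target genes (Hes1 and Hey1), chosen by name as a pathway of interest in bone and vessel growth. All 10 were found among the 22054 genes of the table, and all 10 passed the filter on low counts in every comparison. They were measured by RNA sequencing of fracture callus, the repair tissue that forms around a broken bone, taken from male C57BL/6J mice on day 7 after a femoral fracture fixed with an intramedullary needle. The mice, aged 7 weeks in the labels, were given 1 of 3 treatments by daily injection of 200 μl into the peritoneal cavity, starting on the day after surgery and lasting a week. The inhibitor group received 750 nmol of H-151, a covalent inhibitor of STING. STING is a membrane protein of the endoplasmic reticulum, activated by cGAMP, which the cytosolic DNA sensor cGAS makes. The activator group received 30 mg/kg of SR-717, an activator of STING, and the control group received PBS. Each group had 3 libraries, and all groups shared the fracture and the injections, so no library came from uninjured or uninjected mice. The labels do not say whether a library came from 1 animal, and p-values then measure the spread between these libraries.

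Notch receptors are single-pass membrane proteins that meet ligands of the Jagged and Delta-like families on neighbouring cells. Ligand binding opens the receptor to cleavage by ADAM proteases and then by gamma-secretase, and the freed intracellular domain enters the nucleus, joins the DNA-binding protein RBPJ and switches on targets such as Hes and Hey genes, which encode transcriptional repressors. In bone, Notch signaling is known for holding back differentiation of skeletal progenitors, and in vessels for tip cell choice and mural cell coverage. Activity of the pathway is set mainly by receptor cleavage, which RNA levels do not measure.

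None of the 10 genes passed the test between any pair of groups. In edgeR's quasi-likelihood test, no member had an unadjusted p under 0.05 in the SR-717 and H-151, SR-717 and PBS or H-151 and PBS comparisons, and none had an adjusted p under 0.05. DESeq2's Wald test also called 0 members at an unadjusted p under 0.05 in each comparison. The groups overlapped for every member in every comparison. SR-717 replicate 1 was the highest or the lowest of the 9 libraries for 6 of the 10 members. The share of all genes with this library at an end was not counted, so whether this is particular to the Notch genes was not tested. Hey1 varied the most of the 10 and was correlated with the levels of osteoblast and osteoclast marker genes across libraries. Within sets of libraries with the same replicate number the relation did not pass, in a test with too few exchanges to decide.

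The libraries held 16987398 to 23272480 expected counts, and their values are given below as CPM (counts relative to the library total, scaled by TMM) within a gene and as TPM, which is also scaled for gene length, between genes. The first principal component of log2 CPM placed SR-717 replicate 1 at 100.6 and PBS replicate 1 at 38.8, holding 46.6% of all variance, and the other 7 libraries between -28.8 and -4.0. SR-717 replicate 1 also had the highest summed CPM of 8 neutrophil markers, 13790 against 566.9 to 4588 in the other libraries, and the lowest of 8 chondrocyte markers, 257.2 against 1465 to 14480. Markers of bone, cartilage, vessels, muscle and blood cells were all detected. The keratinocyte list was near absent, with 5 of its 8 genes (Krt5, Krt14, Krt1, Krt15 and Dsg3) at 0 in at least 1 library. The B lineage list was also low, summing to 37.9 CPM in PBS replicate 1 and to 88.3 CPM in H-151 replicate 2. In PBS replicate 1, Ebf1 alone gave 31.0 CPM of that sum and Ms4a1 was at 0. The extraction text of the labels speaks of cell lines, whereas the labelled tissue is bone. In bulk tissue, fewer cells of a type and less RNA per cell cannot be told apart.

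To show the kind of sequence through which the pathway acts on DNA, promoter windows of RefSeq (GRCm38.p6) were searched for TGGGAA, the core of the RBPJ binding motif, on both strands (TTCCCA on the reverse strand), in the 250 bases before the gene start. The motif was present in 7094 of 32851 windows of all genes (21.6%). Windows of 8 of the 10 members were matched, all but Hes1 and Hey1, and 0 of their 9 windows held it. Of 57 windows of 43 other Notch pathway genes, 16 windows of 15 genes held the motif. A set of 3 genes was chosen after the windows were seen, as targets and a modifier of the pathway whose windows held the motif. Of the other genes listed as targets that had a window, Hes7 also held it, and Hes6 and Nrarp did not. The 3 windows are printed from 250 to 31 bases before the start on the gene's strand with the motif in capitals. Hes5 (chr4:154960673-154960892, plus strand) is a classical target, Lfng (chr5:140607091-140607310, plus strand) encodes a Fringe glycosyltransferase that alters ligand choice, and Hey2 (chr10:30842814-30843033, minus strand) is a relative of Hey1.
Hes5: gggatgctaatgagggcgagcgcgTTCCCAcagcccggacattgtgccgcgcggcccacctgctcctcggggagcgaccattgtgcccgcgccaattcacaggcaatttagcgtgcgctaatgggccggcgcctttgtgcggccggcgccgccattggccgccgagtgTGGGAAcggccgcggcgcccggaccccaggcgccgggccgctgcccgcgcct
Lfng: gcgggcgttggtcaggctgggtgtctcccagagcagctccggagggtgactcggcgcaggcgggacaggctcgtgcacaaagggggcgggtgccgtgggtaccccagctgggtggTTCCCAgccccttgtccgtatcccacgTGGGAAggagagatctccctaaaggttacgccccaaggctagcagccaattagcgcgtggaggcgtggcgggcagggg
Hey2: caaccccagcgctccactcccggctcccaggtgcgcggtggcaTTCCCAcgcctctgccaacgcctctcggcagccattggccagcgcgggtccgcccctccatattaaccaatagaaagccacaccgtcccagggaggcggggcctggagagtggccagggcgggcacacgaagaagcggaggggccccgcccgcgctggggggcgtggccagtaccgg
In Hes5 the motifs began 226 and 82 bases before the start, in Lfng 135 and 108 bases, and in Hey2 207 bases. A match describes letters in a window and is no evidence of binding, and a window without a match says only that these letters were not in it. The genes that carry these windows were unequal in RNA level, with Lfng at a mean of 42.4 TPM, Hey2 at 2.58 TPM and Hes5 too low to be tested.

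Among the receptors, Notch2 had the highest mean level over the 9 libraries (25.0 TPM), followed by Notch3 (23.5 TPM), Notch4 (16.0 TPM) and Notch1 (12.7 TPM). Notch2 exceeded Notch3 in only 5 of 9 libraries, so the order of these genes was not settled by the replicates. Among the ligands, Jag1 was at 12.9 TPM, Dll4 at 12.0 TPM, Jag2 at 9.14 TPM and Dll1 at 5.11 TPM, and Dll4 exceeded Jag2, and Jag2 exceeded Dll1, in 9 of 9 libraries. The targets Hey1 (26.1 TPM) and Hes1 (22.5 TPM) were as abundant as the leading receptors. In the order of all 10 genes, Hey1 was above Notch2 in 6 libraries, Notch3 above Hes1 in 5, Hes1 above Notch4 in 9, Notch4 above Jag1 in 8, Jag1 above Notch1 in 6 and Notch1 above Dll4 in 3. Among all genes by mean TPM, Hey1 ranked 4696 and Dll1 10393.

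**Figure D1:**
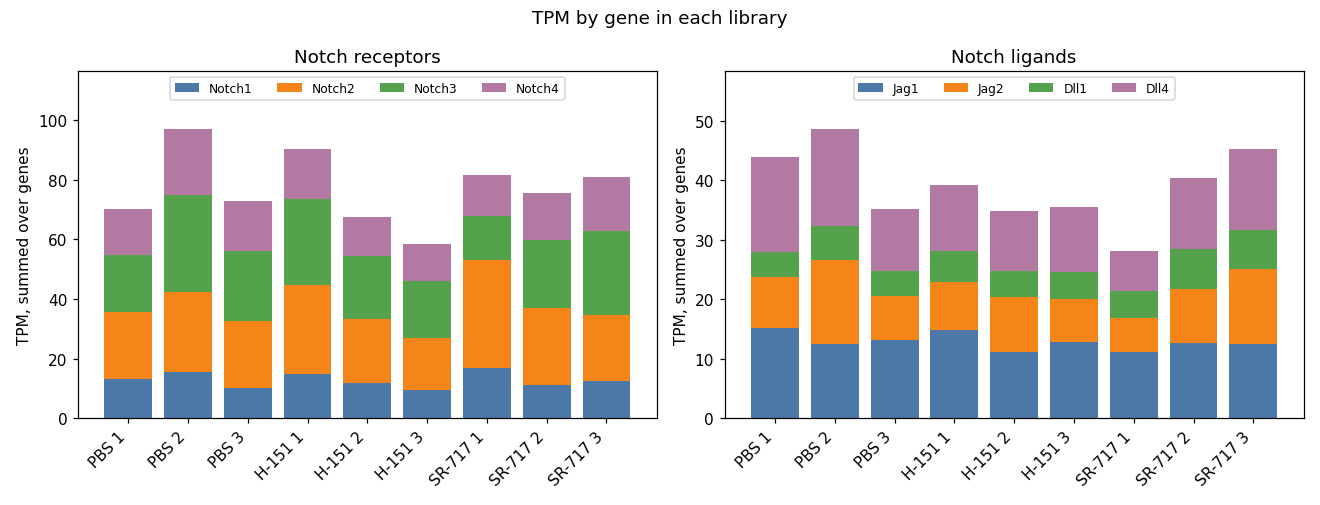
Stacked bars of TPM for the 4 Notch receptors (left) and 4 ligands (right) in each of the 9 libraries, with the gene given by color. Receptor totals ran from 58.4 to 97.2 TPM and ligand totals from 28.2 to 48.7 TPM, and Notch2 took its largest share of the receptors, 44.5%, in SR-717 replicate 1.

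The make-up of the receptors was most unlike the rest in SR-717 replicate 1. Notch2 made up 27.4% to 44.5% of receptor TPM (median 31.8%) and Notch3 18.1% to 34.9% (median 32.2%), with the highest Notch2 share and the lowest Notch3 share both in that library. Notch1 took 13.7% to 20.7% (median 16.1%) and Notch4 16.7% to 22.97% (median 21.0%). Of the ligand TPM, Jag1 took 25.6% to 39.6% (median 34.4%), Dll4 24.3% to 36.4% (median 29.8%), Jag2 19.6% to 29.2% (median 21.0%) and Dll1 9.68% to 16.4% (median 12.8%). Receptor TPM summed to a median of 75.5 and ligand TPM to a median of 39.3.

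Notch1 (chr2:26457903-26516663, minus strand, GRCm38), the receptor best known from lymphocyte and endothelial fate, was at 64.5, 74.3 and 53.3 CPM in PBS replicates 1 to 3, 67.9, 58.3 and 53.6 CPM with H-151, and 96.1, 59.8 and 62.7 CPM with SR-717. The high value was SR-717 replicate 1, and the remaining SR-717 libraries lay inside the range of the other groups. Notch2 (chr3:98013527-98150361, plus strand), which carries mutations in a skeletal disorder with bone loss, was at 125, 141 and 133 CPM with PBS, 153, 119 and 110 CPM with H-151, and 229, 154 and 125 CPM with SR-717. SR-717 replicate 1 was again the highest, at 1.77 times the median of the other 8 libraries, against 1.57 times for Notch1, and all groups overlapped.

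Notch3 (chr17:32120820-32166852, minus strand), the receptor of mural cells, was at 80.5, 132 and 107 CPM with PBS, 111, 89.8 and 93.6 CPM with H-151, and 67.1, 103 and 121 CPM with SR-717. Its lowest library was SR-717 replicate 1, and the highest was PBS replicate 2. Notch4 (chr17:34564268-34588503, plus strand), found mainly in endothelium, was at 51.2, 73.1 and 56.8 CPM with PBS, 51.6, 42.1 and 46.4 CPM with H-151, and 43.8, 51.1 and 60.6 CPM with SR-717. H-151 libraries lay low for Notch4, and the overlap with PBS came from H-151 replicate 1 and PBS replicate 1.

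Jag1 (chr2:137081456-137116644, minus strand), a ligand made by osteoblasts and endothelium, was at 44.5, 35.2 and 41.5 CPM with PBS, 40.3, 32.7 and 43.2 CPM with H-151, and 37.6, 40.1 and 37.6 CPM with SR-717. It was the steadiest member, its highest library at 1.36 times its lowest. Jag2 (chr12:112907819-112929776, minus strand), the other Jagged ligand, was at 20.1, 32.3 and 18.6 CPM with PBS, 20.2, 21.1 and 18.3 CPM with H-151, and 17.4, 23.1 and 26.5 CPM with SR-717. Its PBS libraries spread more widely than the difference between any groups.

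Dll1 (chr17:15367354-15376872, minus strand), a Delta-like ligand of many progenitor tissues, was the lowest member, at 8.00, 10.1 and 8.60 CPM with PBS, 9.07, 8.28 and 9.84 CPM with H-151, and 9.66, 13.5 and 12.2 CPM with SR-717. SR-717 replicates 2 and 3 were the highest of the 9 libraries, and SR-717 replicate 1 fell inside the other groups. Dll4 (chr2:119325784-119335962, plus strand), the endothelial tip cell ligand, was at 31.5, 31.0 and 21.8 CPM with PBS, 20.5, 20.1 and 24.7 CPM with H-151, and 15.4, 25.6 and 27.5 CPM with SR-717. PBS replicates 1 and 2 were high and SR-717 replicate 1 was low, and PBS replicate 3 lay inside the range of the H-151 libraries.

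Hes1 (chr16:30064384-30067796, plus strand), a repressor that many tissues use as a Notch target, was at 15.6, 22.0 and 20.6 CPM with PBS, 15.7, 13.6 and 20.3 CPM with H-151, and 20.9, 16.2 and 16.9 CPM with SR-717. No group held the high or the low end alone. Hey1 (chr3:8663359-8667256, minus strand), a repressor of the Hairy family, was at 29.8, 32.8 and 52.0 CPM with PBS, 28.1, 22.7 and 48.9 CPM with H-151, and 16.5, 40.2 and 39.9 CPM with SR-717. Its highest library was 3.16 times its lowest, the widest range of the 10 genes, and the high libraries came from all 3 groups.

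**Figure D2:**
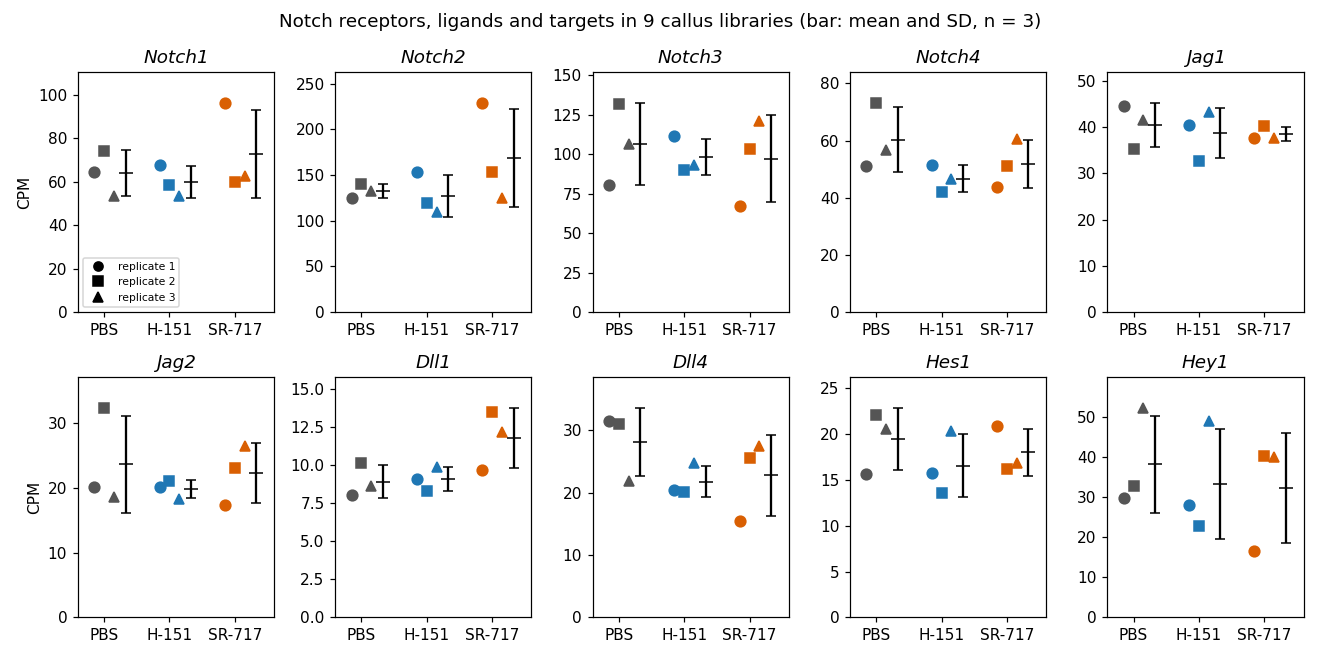
CPM of each Notch gene in the 9 libraries, with point shape giving the replicate number, color the group, and the bar beside each group its mean and SD (n = 3). The groups overlap in every panel, and SR-717 replicate 1 (orange circle) is the highest point for Notch1 and Notch2 and the lowest for Notch3, Jag2, Dll4 and Hey1.

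SR-717 replicate 1 was the lowest library for Dll4 (0.61 times the median of the other 8), Notch3 (0.64 times), Jag2 (0.84 times) and Hey1 (0.45 times), and lay inside the range of the others for Notch4, Jag1, Dll1 and Hes1. This same library held the most macrophage marker RNA, with the 8 genes summing to 2484 CPM against 1046 to 1680 CPM elsewhere, and the least osteoblast marker RNA, 25040 against 30780 to 48660 CPM. Col1a1 gave 21130 CPM of that osteoblast sum, and Sp7, Ibsp, Bglap and Alpl were also at their lowest there. Runx2, Spp1 and Dmp1 were not (99.5, 2526 and 152 CPM, against 76.3, 1742 and 105 CPM in their lowest libraries). The part of these marker shifts in the values of the Notch genes was not tested.

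SR-717 against H-151, the contrast of activation with inhibition of STING, gave 7 members with a positive and 3 with a negative log2 fold change. The median over the members was 0.12, against 0.02 over the 14151 genes tested, of which 53.4% were positive. The largest differences were Notch2 at 0.40 (SE 0.26, 95% interval -0.23 to 1.03) and Dll1 at 0.37 (SE 0.19, interval -0.10 to 0.83), and the smallest p was that of Dll1 (unadjusted p = 0.103, adjusted p = 0.996 by edgeR). Of all genes tested, 1.03% had an unadjusted p under 0.05, and 0.756% (107 genes) were also changed at least 1.5-fold, beside 0 of 10 members by either rule. The 1.03% was below the share of 0.05 expected on average when no gene differs, as were 0.689% and 0.646% in the PBS comparisons. The test thus called few genes of any kind, and 0 members does not show that they were unchanged. The reason was not tested. Libraries of the 2 groups did not overlap for 5.18% of all genes and for 0 members. The interval lay within a 2-fold change in both directions for 8 members, with Notch2 and Hey1 as the exceptions. Without SR-717 replicate 1, the difference of Notch2 was 0.12 (SE 0.18) and that of Notch1 0.02 (SE 0.14, against 0.27 with it). In the same fit Dll1 was at 0.49 with an unadjusted p of 0.027 (adjusted p = 1.000, edgeR), and without SR-717 replicate 2 it was at 0.25 (unadjusted p = 0.301).

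SR-717 against PBS, the activator set against the PBS control, gave 3 positive and 7 negative members with a median of -0.10, against 0.01 over 14070 genes (52.2% positive). Dll1 was at 0.40 (SE 0.22, interval -0.13 to 0.93, unadjusted p = 0.114 by edgeR), Notch2 at 0.35 (SE 0.24) and Dll4 at -0.30 (SE 0.28). At an unadjusted p under 0.05 stood 0.689% of all genes and 0 members, with a 1.5-fold change in addition 0.519% (73 genes) and 0 members, and without overlap of the groups 3.75% and 0 members. The interval lay within 2-fold for 9 members, all but Hey1 (-1.20 to 0.71). Without SR-717 replicate 1, Notch2 was at 0.07, Dll4 at -0.08 and Hey1 at 0.08 (against -0.25 with it), and Dll1 was at 0.53 with an unadjusted p of 0.0532 (edgeR). In the fit that paired libraries by number (replicate block), 443 genes passed both thresholds (342 higher and 101 lower) in place of 73 (38 higher and 35 lower), and the count of members stayed at 0.

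H-151 against PBS, the inhibitor set against the same control, gave 1 positive and 9 negative members with a median of -0.16, against -0.02 over 14085 genes, of which 44.2% were positive. Notch4 was at -0.37 (SE 0.17, interval -0.78 to 0.04, unadjusted p = 0.0688) and Dll4 at -0.37 (SE 0.19, interval -0.82 to 0.09, unadjusted p = 0.0968), both with an adjusted p of 1.000 by edgeR. Of all genes, 0.646% had an unadjusted p under 0.05, 0.426% (60 genes) were also changed 1.5-fold, and 3.87% had groups without overlap, against 0 members by each rule. The interval lay within 2-fold for 9 members, all but Hey1 (-1.01 to 0.61). The replicate block raised the genes past both thresholds from 60 (37 higher and 23 lower) to 262 (201 higher and 61 lower), with 0 members among them. Notch4 moved in both directions with the PBS libraries, to -0.20 (unadjusted p = 0.221) without PBS replicate 2 and to -0.47 (unadjusted p = 0.038) without PBS replicate 1, at an adjusted p of 1.000 in edgeR. Dll4 ran from -0.27 (unadjusted p = 0.248) without PBS replicate 1 to -0.52 (unadjusted p = 0.020) without PBS replicate 3, also at an adjusted p of 1.000 in edgeR. Both PBS comparisons used the same PBS libraries, so a low or high PBS library enters both. The endothelial markers, all 8 detected, summed to 1026 to 1164 CPM with PBS, 974.9 to 1108 CPM with H-151 and 991.3 to 1171 CPM with SR-717, and their part in the Notch4 and Dll4 values was not tested.

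**Figure D3:**
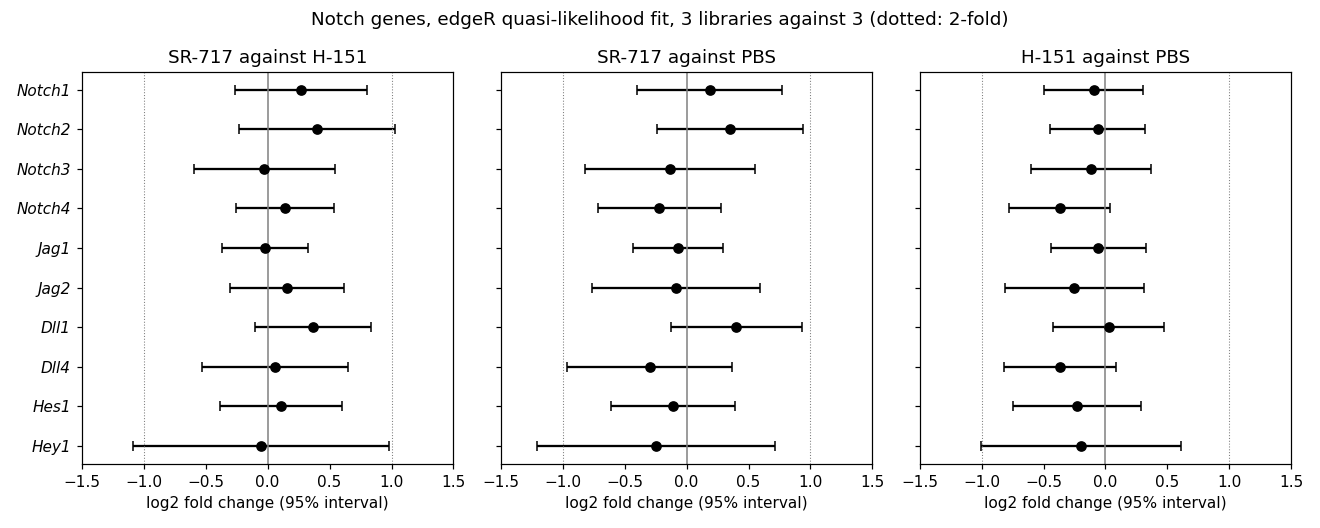
Log2 fold change of each Notch gene (rows) in the 3 comparisons, with points from edgeR's fit, bars the 95% interval and dotted lines a 2-fold change. Every interval includes 0, and those of Hey1 are the widest, reaching from -1.20 to 0.71 in SR-717 against PBS.

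Marker lists of 11 cell types, each of 8 genes, were set beside the members over the 9 libraries, using the mean log2(CPM + 0.5) of a list as its level and giving 110 relations. Of these, 3 passed an adjusted p under 0.05 by Pearson's r in the exact permutation test, and all were of Hey1. With the osteoclast list r was 0.96 (p = 1.7e-05, adjusted p = 0.0019, two-sided exact permutation) and Spearman's rho 0.97 (p = 1.7e-04, adjusted p = 0.019). With the osteoblast list r was 0.95 (p = 2.0e-04, adjusted p = 0.011, exact permutation) and rho 0.92 (p = 0.0013, adjusted p = 0.071). With the neutrophil list r was -0.89 (p = 0.0012, adjusted p = 0.044, exact permutation) and rho -0.87 (p = 0.0045, adjusted p = 0.16), so only the osteoclast relation passed by both measures. These tests exchanged all 9 libraries freely, whereas Hey1 and the osteoclast level also differed in part by replicate number. Number 2 held no fixed place for Hey1. It was above number 3 with SR-717 (40.2 against 39.9 CPM) and below number 1 with H-151 (22.7 against 28.1 CPM). The osteoclast level was 7.70, 7.86 and 7.54 in the libraries numbered 3, the highest of the 9, and Hey1 was lower in the library numbered 1 than in that numbered 3 in every group. With the means of each number removed, r of Hey1 was 0.89 for osteoclast, 0.87 for osteoblast and -0.74 for neutrophil markers (p = 0.014, 0.028 and 0.014, adjusted p = 0.31, 0.44 and 0.31, exact permutation within numbers, whose smallest p is 0.0046). None of the 110 relations passed in this form, chosen after seeing the data. Dll1 with the keratinocyte list was at that smallest p and had an adjusted p of 0.31 (exact permutation within numbers). Jag1 with the osteoclast list and Dll4 with the endothelial list were each at r = 0.92, above Hey1 with osteoclast markers. Both had p = 0.014 and an adjusted p of 0.31 (exact permutation within numbers). With no means removed, their r over the 9 libraries was 0.51 and 0.57. With 216 exchanges, 1 relation alone at the smallest p cannot pass over 110 relations, so this form decides nothing about Hey1.

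Without SR-717 replicate 1, r of Hey1 was 0.95 for osteoclast, 0.91 for osteoblast and -0.83 for neutrophil markers. Without the 2 libraries farthest from the median of the marker level, r was 0.92, 0.87 and -0.80, and with group means removed it was 0.96, 0.96 and -0.92. Hey1 was positively related to 8 of 8 osteoblast genes (r 0.66 to 0.93) and 8 of 8 osteoclast genes (0.81 to 0.95), and negatively to 8 of 8 neutrophil genes. PBS replicate 3 and H-151 replicate 3 were the 2 highest libraries for the osteoblast level (10.42 and 10.07) and, in reverse order, for the osteoclast level (7.70 and 7.86). SR-717 replicate 1 was the lowest for both, so the relations of Hey1 with these 2 lists are not independent. The osteoblast list summed to 32580 to 48660 CPM with PBS, 30780 to 41910 CPM with H-151 and 25040 to 47900 CPM with SR-717, and the osteoclast list to 7892 to 10720, 6003 to 10560 and 5676 to 9567 CPM. The neutrophil list summed to 566.9 to 3413 CPM with PBS, 1296 to 4588 CPM with H-151 and 2476 to 13790 CPM with SR-717. All 24 genes of these lists were above 0 in every library.

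**Figure D4:**
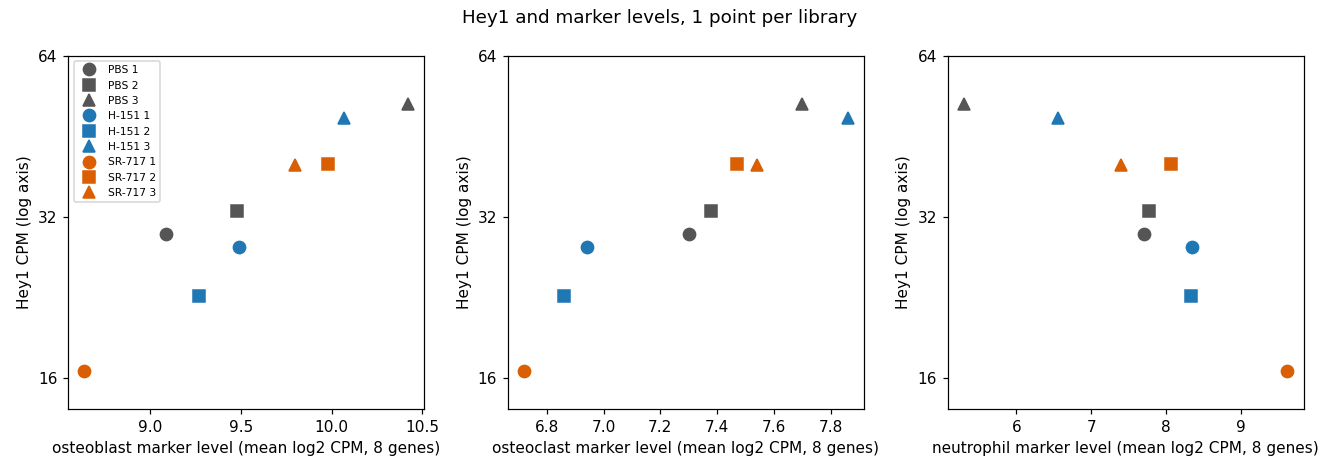
Hey1 CPM (log axis) against the level of osteoblast, osteoclast and neutrophil markers (mean log2 CPM of 8 genes) in the 9 libraries, with color for the group and shape for the replicate number. Hey1 is higher where the osteoblast and osteoclast levels are higher and the neutrophil level is lower. The libraries numbered 3 (triangles) and SR-717 replicate 2 have the highest Hey1 values.

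No other member passed with any list. The nearest was Notch1, with r = 0.87 to the macrophage list (p = 0.0059, adjusted p = 0.15, exact permutation, rho 0.75), which fell to 0.60 without SR-717 replicate 1 and to 0.37 without the 2 farthest libraries, so it rests on those libraries. Notch3 was at r = 0.78 with chondrocyte markers (adjusted p = 0.20, exact permutation) and at 0.05 without the 2 farthest. Notch4 and Dll4 had r of 0.31 and 0.57 with the endothelial list.

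**Figure D5:**
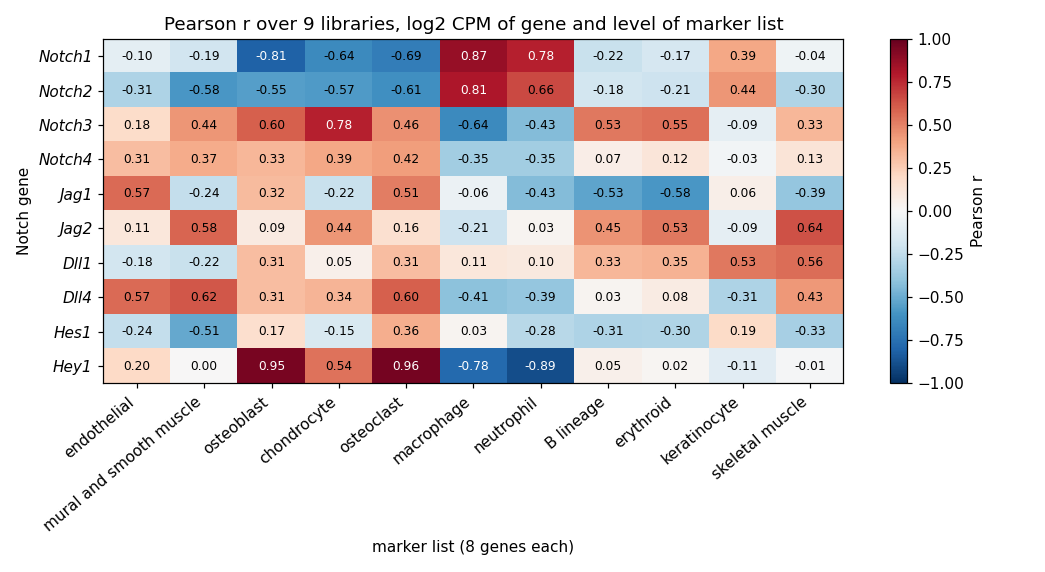
Pearson r over the 9 libraries between each Notch gene (rows) and each marker list (columns), with red positive and blue negative. Hey1 with the osteoblast (0.95), osteoclast (0.96) and neutrophil (-0.89) lists are the cells that passed an adjusted p under 0.05 with libraries exchanged freely. None passed within replicate numbers, where too few exchanges were possible for the test to decide.

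Between the members themselves, 0 of 45 pairs passed an adjusted p under 0.05. Notch3 and Notch4 had r = 0.81 (p = 0.0091, adjusted p = 0.12, exact permutation) and rho = 0.85 (adjusted p = 0.27), and r was 0.81 without SR-717 replicate 1 and without the 2 farthest libraries. Notch1 and Notch2 had r = 0.85 (adjusted p = 0.12, exact permutation), which was 0.51 without SR-717 replicate 1 and 0.31 without the 2 farthest libraries.

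The genes most like each member over the 9 libraries, by Pearson r of log2 CPM among 9771 genes with a mean of at least 10 CPM, are given as a description. For Hey1 they included Fat3 (r = 0.987) and Slc36a2 (0.981), at 0.975 and 0.965 without SR-717 replicate 1. For the receptors they were Trafd1, Atg2a and Slc27a4 (Notch1, each 0.98), Cyb561d1, Fnbp1 and Galns (Notch2, 0.96 to 0.97), Ppm1f, Kif26a and Dhx30 (Notch3, each 0.97) and Acin1, Plekhg2 and N4bp3 (Notch4, 0.94 to 0.96). For the ligands they were Pnn, Zcchc7 and Gpatch4 (Jag1), Itpkb, Ubr2 and Ficd (Jag2), Ddit4l, Wdr33 and Ndc1 (Dll1) and Usp36, Arhgef15 and C77080 (Dll4), and for Hes1 Thoc6, Stard3 and Clip2 (each 0.87).

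Of 53 other genes of the pathway, 50 could be tested, and Dll3, Hes5 and Hes7 were too low. Between SR-717 and H-151 and between SR-717 and PBS, 0 of 50 had an unadjusted p under 0.05 in edgeR, with 33 and 25 positive and medians of 0.06 and 0.01. Between H-151 and PBS, 1 of 50 had, with 17 positive and a median of -0.07. Over all genes the share was 0.646%. The gene was Dtx2, a Deltex ubiquitin ligase that acts on Notch receptors, at 29.2, 31.0 and 26.0 CPM with PBS, 21.5, 22.7 and 22.0 CPM with H-151 and 41.3, 22.4 and 25.9 CPM with SR-717. Its H-151 libraries were all below its PBS libraries, as groups without overlap were for 3.87% of all genes (log2 fold change -0.38, SE 0.13, unadjusted p = 0.0258, adjusted p = 1.000 by edgeR).

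The 2 most abundant genes of each other list are given by their mean TPM. In the receptor cleavage list they were the gamma-secretase subunits Psenen (168 TPM) and Aph1a (109 TPM), and in the nuclear complex Rbpj, the DNA-binding partner of the receptor, was at 38.0 TPM beside Snw1 at 34.5 TPM. The corepressors were Ctbp1 (205 TPM), the most abundant of the genes named here, and Hdac1 (82.5 TPM). The other lists held the glycosyltransferases Lfng (42.4 TPM) and Poglut1 (31.3 TPM), and the turnover genes Dtx3 (36.2 TPM) and Numbl (33.7 TPM). In the list of ligand ubiquitin ligases they were the neuralized family genes Neurl3 (38.2 TPM) and Neurl1a (19.6 TPM). Whether Neurl3 acts on Notch ligands was not tested. Among non-canonical ligands, Dlk1 was at 46.4 TPM and Dlk2 at 1.53 TPM. The list of further targets held Hes6 at 30.1 TPM and Heyl at 21.9 TPM. Whether Hes6 responds to Notch was not tested.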

How the data were processed

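Libraries were grouped by treatment from the sample labels. The labels describe poly(A)-selected, strand-specific, paired-end libraries and name genome build mm10. The aligner, the counting program and whether counting used strand are not given in the sources used here, so overlapping and antisense genes are uncertain. The authors deposited an expected count per gene without normalization and a TPM value scaled by gene length and library total. Expected counts, of which 8.91% were not whole, were rounded, and none of the members' were affected. The 2 closest libraries of 36 pairs still differed at a chi-square of 24.7 per gene.

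Tests used edgeR 4.0.16 in R 4.3.3 (filterByExpr with a minimum count of 10 and total of 15, TMM, glmQLFit, glmQLFTest) on the 6 libraries compared, with Benjamini-Hochberg adjustment over all genes tested. DESeq2 1.42.0 was an alternative, together with DESeq2 size factors, no filter, a fit to all 9 libraries, a replicate block and leaving out each library. The test was checked on simulated data. The members and lists were chosen with earlier results of these data known. Named genes were the members, pathway genes with an unadjusted p under 0.05 or the 2 of highest mean TPM in their list, and the 3 genes most like each member, of which 1 is not reported here. Log2 CPM used a prior count of 2. Gene positions are from GENCODE M21.

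Replicate numbers come from the labels, which do not say what they mark. Libraries with the same number were compared by how they deviated from the means of their groups. In the order of the numbers, r was 0.65, 0.341 and 0.139 (SR-717 and PBS) and 0.305, 0.485 and 0.503 (H-151 and PBS). It was 0.342, 0.062 and 0.079 for SR-717 and H-151. No r between libraries of unlike number was set beside these, so whether the numbers pair libraries was not settled. The main tests did not use the numbers, and the replicate block was an alternative in every comparison.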

Additional observations from a re-analysis of the deposited data

How the results depend on the processing

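The count of Notch genes at an unadjusted p under 0.05 and 1.5-fold was 0 in each comparison under DESeq2 size factors, no low-count filter, DESeq2's Wald test, all 9 libraries in 1 fit and the replicate block, and no member changed direction under these. Over the fits without 1 library or without all libraries numbered 1, a setting chosen after seeing the data, the count of members stayed at 0 in every comparison, and the following log2 fold changes took both signs. They ran, for SR-717 against H-151, as Notch3 -0.21 to 0.28, Jag1 -0.13 to 0.060, Dll4 -0.091 to 0.28, Hes1 -0.049 to 0.28 and Hey1 -0.27 to 0.33. For SR-717 against PBS they ran as Notch1 -0.062 to 0.31, Notch3 -0.32 to 0.082, Jag1 -0.17 to 0.038, Jag2 -0.23 to 0.20, Dll4 -0.45 to 0.025 and Hey1 -0.44 to 0.076, and for H-151 against PBS as Notch1 -0.21 to 0.037, Notch2 -0.23 to 0.034, Notch3 -0.36 to 0.084, Jag1 -0.14 to 0.050, Jag2 -0.40 to 0.052, Dll1 -0.037 to 0.14 and Hey1 -0.59 to 0.088. In a fit that left a group with 2 libraries the spread was pooled over both groups.

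Counts over all genes moved more. For SR-717 against H-151, 107 genes became 209 under DESeq2's Wald test (147 higher and 62 lower, against 52 and 55), 223 without a filter, 171 with all 9 libraries, and 64 to 661 leaving out libraries (64 without H-151 replicate 2, 384 without SR-717 replicate 2 and 661 without SR-717 replicate 3). For SR-717 against PBS, 73 became 138, 194 and 176 in the same settings, 443 with the replicate block and 95 to 319 leaving out libraries (118 without PBS replicate 1, 259 without PBS replicate 2, 319 without SR-717 replicate 3 and 118 without all libraries numbered 1). For H-151 against PBS, 60 became 127 without a filter, 262 with the replicate block and 43 to 698 leaving out libraries (99 without H-151 replicate 3, and 115, 698 and 153 without PBS replicates 1, 2 and 3). The cause was not tested. In SR-717 against H-151 the replicate block gave 143. The replicate block changed no call of a member. With 3 libraries a group, the intervals of Hey1 still allowed 2-fold changes.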

Other observations

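SR-717 replicate 1 also lay at an end of the range for other genes of the pathway, of which 3 examples were chosen after their values were seen. Neurl3, a ubiquitin ligase of the neuralized family, was at 167 CPM in SR-717 replicate 1, 78.1 CPM in PBS replicate 1 and 25.7 to 45.9 CPM in the other 7 libraries. Rbpj was at 223 CPM in SR-717 replicate 1 and 75.0 to 124 CPM elsewhere. Heyl, a target known from mural cells, was at 22.4 CPM there and at 40.5 to 80.9 CPM elsewhere. Hey2, also chosen after its values were seen, was at 11.8 CPM in PBS replicate 3, 5.48 CPM in SR-717 replicate 1, 4.50 CPM in H-151 replicate 3 and 1.54 to 2.54 CPM in the other libraries. Nrarp, a feedback inhibitor of Notch also chosen after its values were seen, kept to 24.8 to 33.2 CPM in all 9 libraries.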
